A study of Mus musculus with 4 samples.

Results

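The genes described here are 8 genes of the pluripotency network, read in DNA methylation of adult mouse hippocampus: Pou5f1, Nanog, Zfp42, Utf1, Dppa2, Dppa4, Dppa3 and Tdgf1. They were read from the deposited regions that carry one of these gene names, 45 in number, plus the 31 regions on the same chromosome within 3 kb of the outermost of them. That gives 76 of the 849014 regions that had a value in all 4 libraries. The values are percent methylation from whole-genome bisulfite sequencing, in which unconverted cytosines are read as methylated. Such a value is the sum of 5-methylcytosine and 5-hydroxymethylcytosine, and it averages over all cells of the tissue, so a change in some cells and a smaller change in all cells cannot be told apart.

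The tissue was CA1, a field of the hippocampus, from mice of the C57B6/J strain aged 117 days. The Tet2+f_Camk2aCre group has 2 libraries and carries Cre in its label with the name of Camk2a, whose promoter is used to drive Cre in excitatory neurons of the forebrain. The Tet2+f group also has 2 libraries, and its label has no Cre. Tet2+f stands in the labels of both groups, and the series text describes a reduced dose of Tet2, an enzyme that oxidises 5-methylcytosine, in glutamatergic cells. No group has Cre without Tet2+f, so Tet2 dose and Cre cannot be told apart. Whether each library is a mouse of its own is not in the labels, so a p-value here rests on a spread among libraries that may be technical.

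In embryonic stem cells, these genes belong to the circuit that keeps cells undifferentiated, with OCT4, the product of Pou5f1, and NANOG among its central transcription factors. They are shut off as embryos differentiate, and at several of them the promoter gains DNA methylation, which helps to hold the gene silent. TET enzymes are known for the reverse step when somatic cells are reprogrammed to pluripotency. Expression was not measured here, so whether the 8 genes are silent in these samples was not tested.

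The whole-series facts that bear on these genes are few. All 849014 regions averaged 76.0% and 75.8% in the Tet2+f_Camk2aCre libraries, and 75.7% and 76.1% in the Tet2+f libraries. Read counts are not in the table, so depth is unknown and no counting interval is given. Over regions that carry its name, Tet2 was at 79.7% and 78.3% in the Tet2+f_Camk2aCre libraries, and at 79.3% and 78.7% in the Tet2+f libraries, which says nothing of a deletion. Promoters of 6 markers of CA1 pyramidal neurons had a median of 26.9%, and those of 11 markers of other brain and vessel cells had a median of 57.8%. As means of the 4 libraries, 0 of 6 and 5 of 11 were above 60%, against 39.0% of all promoters. Under 20% were 2 of 6 and 3 of 11, against 24.1% of all promoters. The 3 were Prox1 of the dentate gyrus, at 13.1%, and Gad1 and Gad2 of interneurons, at 13.9% and 19.3%. These levels are only a rough guide to the cells present. Among the CA1 markers the Camk2a promoter was at 69.7% and 66.6% in the Tet2+f_Camk2aCre libraries, and at 30.5% and 30.4% in the Tet2+f libraries, and its part in other results was not tested. The Cre label names this gene, and whether reads of a promoter copy driving Cre were placed there was not tested.

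The promoters of Utf1, Zfp42 and Nanog are shown because they span, among the genes with a promoter window, the range of CpG content and of methylation at the start. The 250 bases before the gene start are shown in the direction of transcription, from RefSeq on GRCm38.p6, which has the chromosome sequences of mm10. Capitals mark CpG dinucleotides, the sites at which methylation is mostly found. They lie at chr7:139943606-139943855 on the plus strand for Utf1, at chr8:43307010-43307259 on the minus strand for Zfp42 and at chr6:122707239-122707488 on the plus strand for Nanog.
Utf1: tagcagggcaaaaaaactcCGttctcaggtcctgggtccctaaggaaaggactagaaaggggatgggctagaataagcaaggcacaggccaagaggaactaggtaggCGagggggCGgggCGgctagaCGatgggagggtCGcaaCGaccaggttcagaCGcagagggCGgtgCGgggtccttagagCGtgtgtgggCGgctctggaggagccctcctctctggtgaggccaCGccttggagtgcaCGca
Zfp42: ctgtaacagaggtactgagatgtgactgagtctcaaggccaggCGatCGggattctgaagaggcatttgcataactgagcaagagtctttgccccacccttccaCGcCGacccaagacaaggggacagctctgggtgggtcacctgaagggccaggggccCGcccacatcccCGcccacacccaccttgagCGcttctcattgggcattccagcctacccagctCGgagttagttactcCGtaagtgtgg
Nanog: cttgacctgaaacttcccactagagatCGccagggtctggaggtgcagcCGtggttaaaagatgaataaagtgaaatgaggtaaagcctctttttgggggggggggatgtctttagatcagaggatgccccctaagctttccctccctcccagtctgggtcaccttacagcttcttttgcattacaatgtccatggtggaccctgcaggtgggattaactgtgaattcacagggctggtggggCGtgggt

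The Utf1 window holds 14 CpG dinucleotides, and 35.2% of 9070 genes with a window at the annotated start hold at least as many. Zfp42 has 9 in this window (48.1% of genes hold at least as many), Pou5f1 has 8 (50.6%), Tdgf1 has 7 (53.4%) and Nanog has 3 (71.6%). The motif counted was CG, which reads the same on both strands. Of the 8 genes, 5 had a window. Across all genes with a window, the region holding the start had a median level of 80.1% at 1 to 2 CpG, 76.1% at 3 to 5, 22.0% at 6 to 10 and 0.611% at 11 to 20. This is a description across genes, which are not independent replicates. Pou5f1, Tdgf1 and Zfp42, with 7 to 9 CpG in the window, had start regions at 47.6%, 60.2% and 60.4%. The quartiles of genes with 6 to 10 CpG were 2.0% and 60.6%, so Tdgf1 and Zfp42 lay close under the upper one. Utf1, at 2.66%, lay just above the upper quartile of 2.57% of genes with 11 to 20 CpG.

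**Figure D1:**
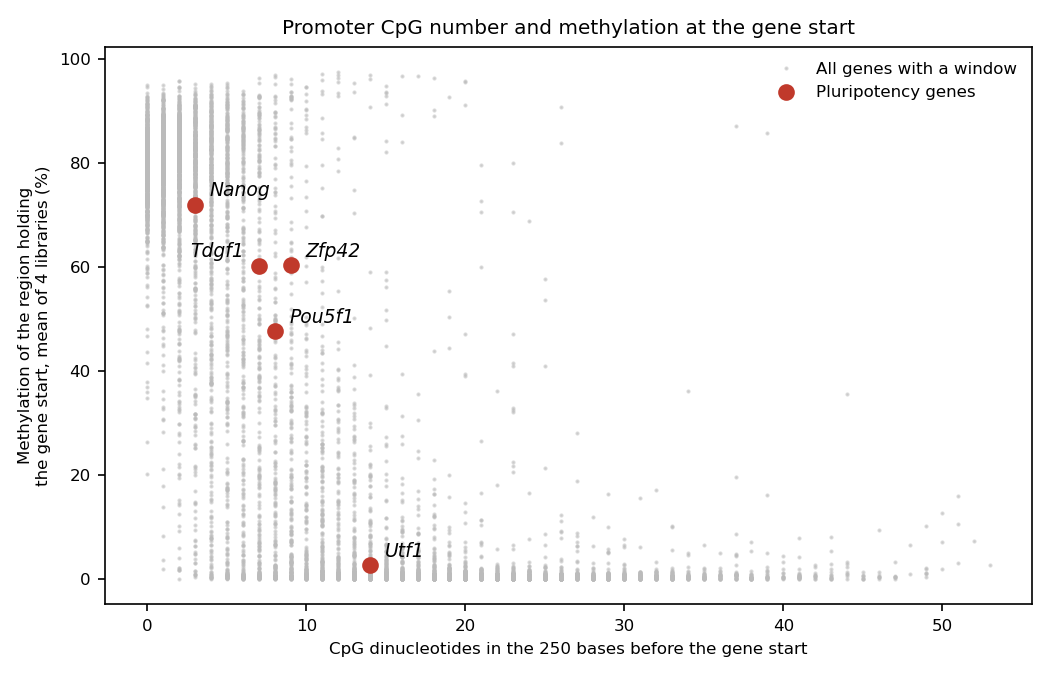
Number of CpG dinucleotides in the 250 bases before the gene start (x axis) against methylation of the deposited region holding the start (y axis, %, mean of 4 libraries). Grey points are 9070 genes and red points are the 5 pluripotency genes with a window, of which Nanog, with 3 CpG, sits at 72.0%, and Utf1, with 14, at 2.66%.

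At the gene start, 7 of the 8 genes were methylated above the median of all genes in every library, and Utf1 was nearly unmethylated. Over 19418 genes the region holding the start had a median level of 25.8%, with quartiles of 0.651% and 77.9%. In order of level, averaged over the 4 libraries, the start regions were at 87.5% for Dppa3, 85.6% for Dppa4, 82.5% for Dppa2, 72.0% for Nanog, 60.4% for Zfp42, 60.2% for Tdgf1, 47.6% for Pou5f1 and 2.66% for Utf1. Neighbours in this order overlapped in their library values from Dppa3 to Dppa2, and Tdgf1 overlapped both Zfp42 and Nanog. Pou5f1 lay just under every library of Tdgf1. Nanog lay under every library of Dppa2, and Utf1 lay far under every library of Pou5f1.

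Utf1 encodes a chromatin-bound transcriptional regulator of undifferentiated cells, and it had the only regions under 20% among the 76. The plus-strand gene (chr7:139943856-139945112) measures 1257 bp, the shortest of the 8. The region of 359 bp over its start was at 3.0% and 1.20% in the Tet2+f_Camk2aCre libraries, and at 4.67% and 1.76% in the Tet2+f libraries. The groups overlapped. The next region, of 232 bp, was at 1.47% and 0.722% in the Tet2+f_Camk2aCre libraries, and at 0.9% and 0% in the Tet2+f libraries. The region of 212 bp after it was at 0% and 2.09% in the Tet2+f_Camk2aCre libraries, and at 1.5% and 2.89% in the Tet2+f libraries. All libraries were therefore below 5% from 263 bp before the start to 539 bp into the gene.

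Beyond that stretch, methylation at Utf1 was higher toward the end of the gene, and here stood the largest group difference of all 76 regions. The region of 310 bp at chr7:139944396-139944705 was at 6.33% and 4.07% in the Tet2+f_Camk2aCre libraries, and at 18.2% and 14.1% in the Tet2+f libraries. Both Tet2+f_Camk2aCre libraries were below both Tet2+f libraries. The means were 5.20% ± 1.60 and 16.1% ± 2.89 (SD, n = 2 each), a difference of -10.9 percentage points that did not pass the threshold (limma adjusted p = 0.937). Unadjusted, p was 0.00302 in the same limma fit. The adjusted p ranged from 0.807 to 0.988 over 11 other settings, in which the difference stayed between -12.98 and -8.89 points.

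The regions around that one at Utf1 differed between the groups in both directions. The last region in the gene, of 435 bp, was at 27.8% and 14.1% in the Tet2+f_Camk2aCre libraries, and at 34.7% and 18.3% in the Tet2+f libraries. Here the replicates of each group were farther apart than the group means. The first region past the gene was at 72.4% and 75.1% in the Tet2+f_Camk2aCre libraries, and at 76.6% and 80.6% in the Tet2+f libraries, and the groups did not overlap. Upstream, regions that carry the name of the neighbouring gene Kndc1 differed in opposite directions. The one from 3576 to 2366 bp before the Utf1 start was at 81.5% and 73.6% in the Tet2+f_Camk2aCre libraries, and at 69.1% and 69.7% in the Tet2+f libraries. The one from 2365 to 264 bp before it was at 78.7% and 83.2% in the Tet2+f_Camk2aCre libraries, and at 85.4% and 86.7% in the Tet2+f libraries. Neither passed (limma adjusted p = 0.937 for each). Of the 9 regions at Utf1, 4 had groups that did not overlap, against 32.8% of all regions and 23.7% of the 76.

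**Figure D2:**
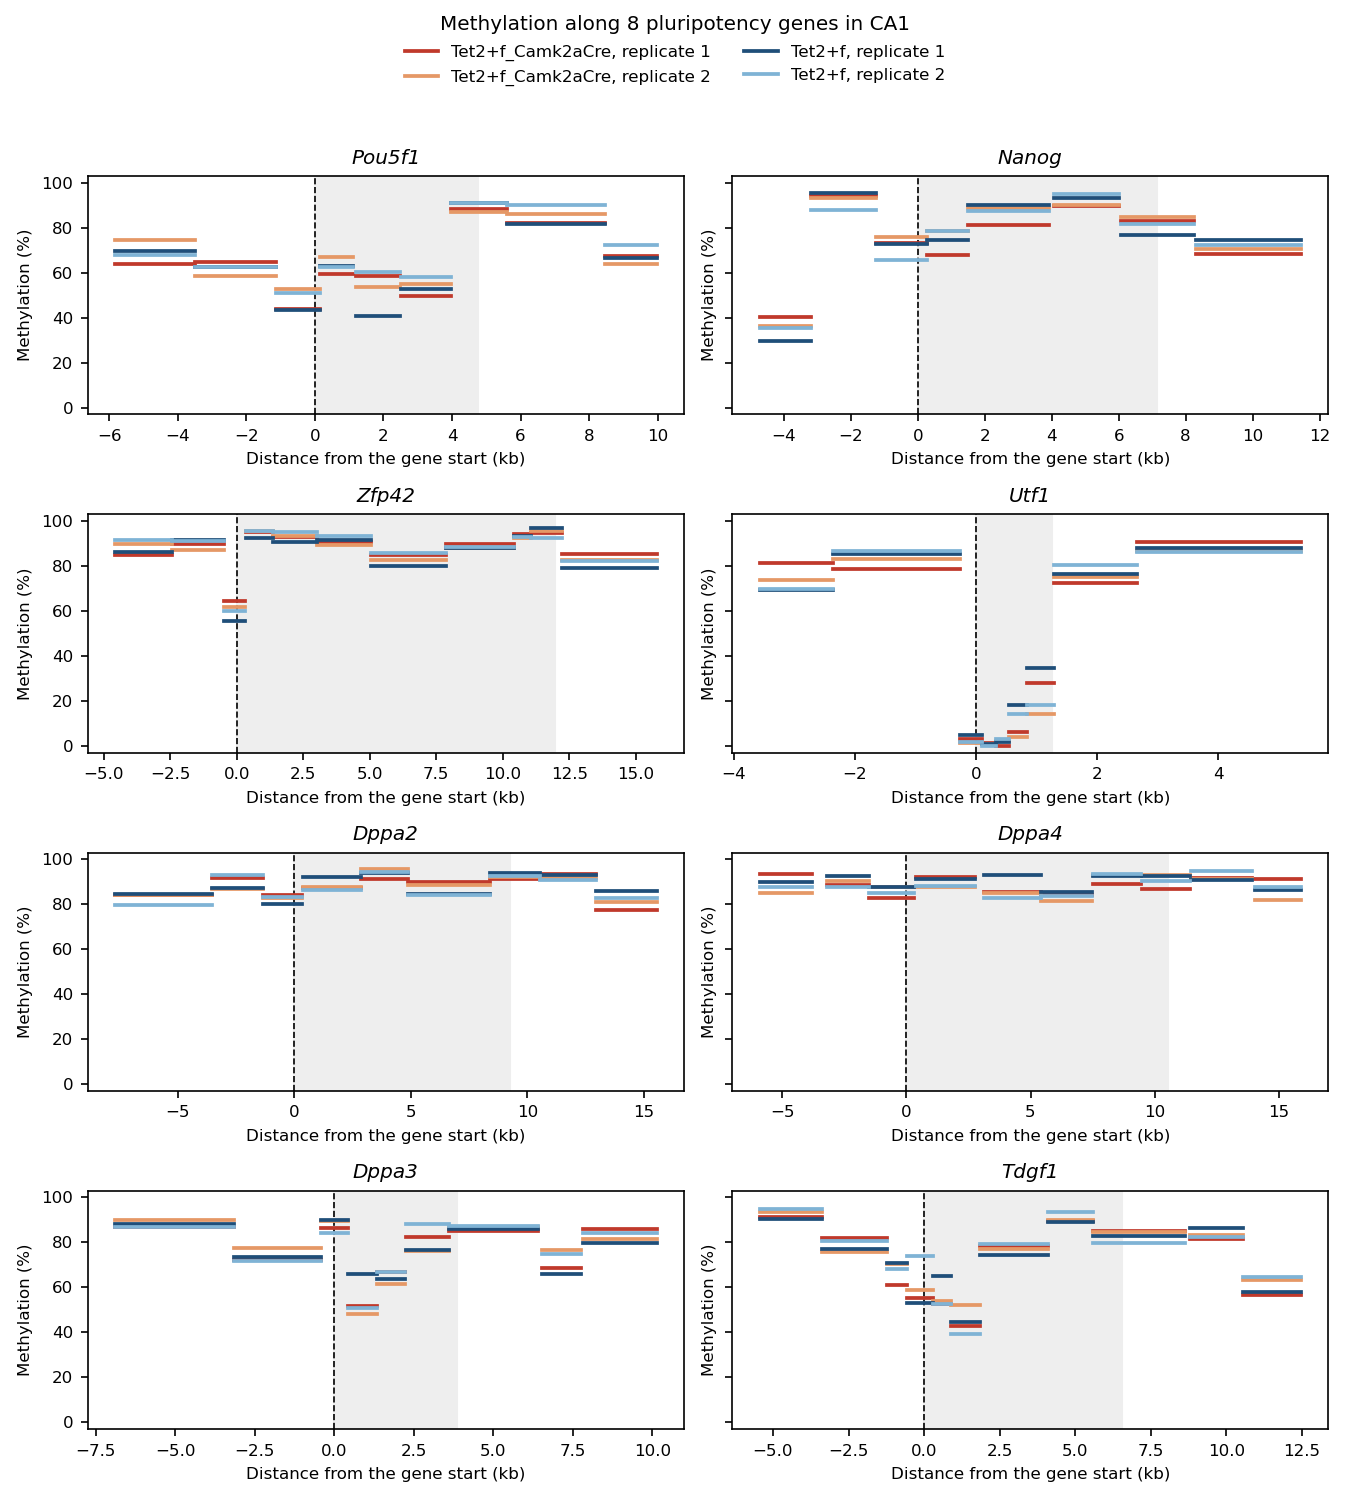
Methylation (y axis, %) of each deposited region along the 8 genes, by distance from the gene start (x axis, kb, in the direction of transcription). Each horizontal line spans 1 region in 1 library, the dashed line is the start and the grey area is the gene, and Utf1 is below 5% around its start, Zfp42 has 1 region near 60% at its start, and Dppa2 and Dppa4 stay at 77.5% or more throughout.

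Pou5f1 encodes OCT4, a POU-domain transcription factor, and it was partly methylated over its promoter and most of its body. The plus-strand gene is at chr17:35506032-35510777. Its start region, from 1146 bp before to 144 bp after the start, was at 43.7% and 52.7% in the Tet2+f_Camk2aCre libraries, and at 43.3% and 50.8% in the Tet2+f libraries. Replicate 2 was above replicate 1 in each group, and the groups overlapped. The 3 regions that follow in the gene averaged 63.1%, 56.2% and 52.3% in the Tet2+f_Camk2aCre group, and 62.7%, 50.4% and 55.3% in the Tet2+f group. The last region of the gene was far higher, at 88.4% and 87.0% in the Tet2+f_Camk2aCre libraries, and at 90.8% and 91.1% in the Tet2+f libraries. In the region that begins 1203 bp into the gene, the Tet2+f_Camk2aCre libraries were at 58.7% and 53.6%, and the Tet2+f libraries at 40.5% and 60.2%. Replicate 1 of the Tet2+f group was the lowest, and the groups overlapped. The difference there of 5.78 points turned to -4.07 points without that library. The annotation names 7 pseudogenes of Pou5f1 elsewhere in the genome, so levels of its body are uncertain if reads of such copies were placed here.

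Nanog encodes a homeodomain transcription factor, and its body was methylated, with 1 low region upstream. The plus-strand gene is at chr6:122707489-122714633. Its start region was at 73.4% and 76.1% in the Tet2+f_Camk2aCre libraries, and at 72.8% and 65.6% in the Tet2+f libraries. Both Tet2+f_Camk2aCre libraries were above both Tet2+f libraries, and the difference of 5.54 points did not pass (limma adjusted p = 0.937). The low region lies from 4729 to 3203 bp before the start, at chr6:122702760-122704286. It was at 40.2% and 36.2% in the Tet2+f_Camk2aCre libraries, and at 29.5% and 35.3% in the Tet2+f libraries, a difference of 5.79 points (limma adjusted p = 0.937). Again both Tet2+f_Camk2aCre libraries were the higher ones, and the difference was 2.91 points without replicate 1 of the Tet2+f group and 8.68 points without replicate 2 of it. The region between it and the promoter was at 94.3% and 93.4% in the Tet2+f_Camk2aCre libraries, and at 95.6% and 87.8% in the Tet2+f libraries. In embryonic stem cells Nanog is known to have upstream enhancers, and whether the low region is one was not tested.

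Within Nanog the regions differed in both directions. The region from 4057 to 5997 bp into the gene was at 89.8% and 90.2% in the Tet2+f_Camk2aCre libraries, and at 93.2% and 95.1% in the Tet2+f libraries, with an unadjusted p of 0.0247 (limma adjusted p = 0.937). The next one was at 83.0% and 84.9% in the Tet2+f_Camk2aCre libraries, and at 77.0% and 81.5% in the Tet2+f libraries. The groups did not overlap in either region. Of the 8 regions at Nanog, 4 were higher and 4 lower in the Tet2+f_Camk2aCre group, and the gene mean differed by 0.326 points. The libraries of the groups did not overlap in 5 of these 8, against 32.8% of all regions and 23.7% of the 76. Nanog has 2 named pseudogenes.

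Zfp42 encodes REX1, a zinc finger protein used as a marker of the naive state, and its start was a dip in an otherwise methylated gene. The minus-strand gene is at chr8:43295067-43307009. The start region of 791 bp was at 64.3% and 61.8% in the Tet2+f_Camk2aCre libraries, and at 55.4% and 59.96% in the Tet2+f libraries. The Tet2+f_Camk2aCre libraries were the higher ones, by 5.35 points on average, and the test did not call this (limma adjusted p = 0.937). The difference was 3.08 points without replicate 1 of the Tet2+f group and 7.62 points without replicate 2 of it. The other 10 regions of Zfp42 averaged between 82.3% and 94.9% over the 4 libraries. The first region of the body was at 95.1% and 95.5% in the Tet2+f_Camk2aCre libraries, and at 92.4% and 95.5% in the Tet2+f libraries. The regions of Zfp42 differed by -3.03 to 5.35 points between the groups, the start region by the most. Zfp42 has 1 named pseudogene.

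Dppa2 and Dppa4 encode partner proteins with SAP domains that bind chromatin, and they were the most evenly methylated of the 8. They are neighbours on chromosome 16, with 15981 bp between them, Dppa4 from 48283735 to 48294292 and Dppa2 from 48310274 to 48319513, both on the plus strand. The gene mean of Dppa2 was 87.83% and 87.84% in the Tet2+f_Camk2aCre libraries, and 88.3% and 87.4% in the Tet2+f libraries. The gene mean of Dppa4 was 88.5% and 87.6% in the Tet2+f_Camk2aCre libraries, and 90.1% and 88.1% in the Tet2+f libraries. Between regions the SD of levels was 4.59 points at Dppa2 and 2.86 points at Dppa4, against 39.0 points at Utf1 and 9.86 to 18.5 points at the other 5 genes. These 2 genes stood at the 93.7th and 94.9th percentile of all gene means, though the means of other genes include no flanking regions.

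The libraries of the groups did not overlap in 3 of 9 regions of Dppa2 and in 0 of 10 of Dppa4, against 32.8% of all regions, so the share at Dppa2 was that of the background. The region from 4873 to 8396 bp into Dppa2 was at 89.8% and 88.4% in the Tet2+f_Camk2aCre libraries, and at 84.6% and 84.1% in the Tet2+f libraries, a difference of 4.76 points (unadjusted p = 0.0370, limma adjusted p = 0.937). The last flanking region, from 12953 bp after the start, was at 77.5% and 80.9% in the Tet2+f_Camk2aCre libraries, and at 85.8% and 83.0% in the Tet2+f libraries. At Dppa4, 8 of 10 regions were lower in the Tet2+f_Camk2aCre group, by at most 2.53 points, and the libraries of the groups overlapped in each. In the region of that largest difference the Tet2+f_Camk2aCre libraries were at 85.5% and 84.8%, and the Tet2+f libraries at 92.8% and 82.6%. Without replicate 1 of the Tet2+f group the difference was 2.56 points, in the other direction.

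Dppa3 encodes STELLA, a maternal factor known in mouse zygotes for protecting the maternal genome from oxidation by TET3. The plus-strand gene is at chr6:122626424-122630271, 77217 bp upstream of Nanog. Its start region was at 86.2% and 89.5% in the Tet2+f_Camk2aCre libraries, and at 90.03% and 84.2% in the Tet2+f libraries. The lowest region came after the start, from 443 to 1335 bp into the gene, with 51.7% and 48.4% in the Tet2+f_Camk2aCre libraries, and 65.9% and 51.0% in the Tet2+f libraries. Its difference of -8.37 points came mostly from replicate 1 of the Tet2+f group and was -0.913 points without it. The groups overlapped in all 9 regions at Dppa3, where 32.8% of all regions did not overlap, and the gene mean differed by -0.622 points. Dppa3 has 1 named pseudogene.

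Tdgf1 encodes CRIPTO, a membrane-anchored co-receptor for the growth factor NODAL, and it had a broad stretch of intermediate methylation around its start. The minus-strand gene is at chr9:110939608-110946158. The start region was at 55.2% and 58.7% in the Tet2+f_Camk2aCre libraries, and at 53.0% and 74.1% in the Tet2+f libraries, so the Tet2+f libraries were 21.1 points apart. The lowest region, from 882 to 1840 bp into the gene, was at 42.6% and 52.0% in the Tet2+f_Camk2aCre libraries, and at 44.6% and 39.2% in the Tet2+f libraries. From there on the body was at 77.4% or more on average over the libraries. Of the 8 promoters, that of Tdgf1 had the largest difference. It was at 62.7% and 64.7% in the Tet2+f_Camk2aCre libraries, and at 66.6% and 68.9% in the Tet2+f libraries, with group means of 63.7% ± 1.39 and 67.8% ± 1.65 (SD, n = 2 each). The difference of -4.05 points did not pass (limma adjusted p = 0.961), and it lay between -5.22 and -2.89 points with any 1 library left out. Tdgf1 has 2 named pseudogenes.

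Over the whole promoter, taken as all regions overlapping 2000 bp before to 500 bp after the start, Dppa4 and Dppa2 were the highest, at 88.4% and 86.8% over the 4 libraries, and Utf1 the lowest, at 22.1%. All promoters, 19781 in number, had a median of 37.8%, and 39.0% of them were above 60%, as were 6 of the 8 genes. The Utf1 promoter was at 20.8% and 21.8% in the Tet2+f_Camk2aCre libraries, and at 23.1% and 22.8% in the Tet2+f libraries. The libraries of the groups did not overlap for 2 of the 8 promoters, Utf1 and Tdgf1, against a background of 33.7%. In 3 of 8 promoters the Tet2+f_Camk2aCre mean was the higher, against 50.8% of all. The level at Utf1 includes a region of 2102 bp in Kndc1 at 81.0% in the Tet2+f_Camk2aCre group and 86.0% in the Tet2+f group, because a region that overlaps the window counts whole.

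**Figure D3:**
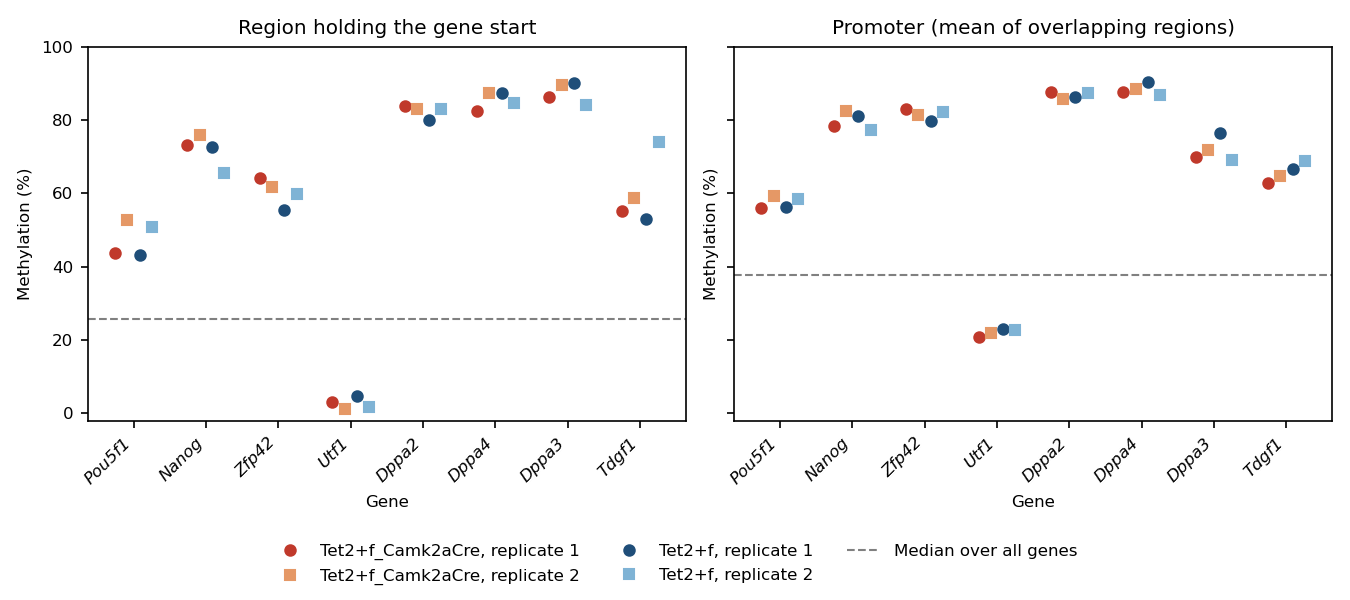
Methylation (y axis, %) of the region holding the gene start (left) and of the promoter (right) for each of the 8 genes, with 1 point per library. The dashed line is the median over all genes, 25.8% for start regions and 37.8% for promoters, and Utf1 is the only one of the 8 under it.

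None of the 8 genes passed the test of the group difference, at any of the 3 levels at which it was made. Among regions, 0 of the 76 had a limma adjusted p under 0.05, against a background of 0% of all 849014. At an unadjusted p under 0.05 there were 3 of 76, or 3.95%, the regions in Utf1, Nanog and Dppa2 named above, against a background of 4.60%. Among promoters, 0 of 8 passed and 0 had an unadjusted p under 0.05, with backgrounds of 0% and 5.07%. Among gene means, 0 of 8 passed and 0 had an unadjusted p under 0.05, with backgrounds of 0% and 5.32% of 26848 genes. The smallest limma adjusted p among the 8 was 0.961 for promoters and 0.999 for gene means. In simulated data of this size the test over regions called none of the changed regions after adjustment, large changes included. Those changes were planted only in regions of low to intermediate level, while 64 of the 76 regions were above 60%. How the test does at such high levels was not tested, so its count of 0 says little. A p that misses the threshold does not show that the levels were alike.

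The differences went in both directions. Of the 76 regions, 33 were higher and 43 lower in the Tet2+f_Camk2aCre group, so 43.4% were higher against a background of 49.2%. The libraries of the groups did not overlap in 18 of 76 regions, or 23.7%, against 32.8% of all regions. In 8 of these both Tet2+f_Camk2aCre libraries were above, and in 10 both were below, against backgrounds of 15.9% and 16.8%. The median difference was -0.782 points in the 76 regions and -0.0214 points in all regions. The median size of the difference, whatever its sign, was 1.78 points in the 76 regions and 1.74 points in all regions. Replicates of the same group differed by a median of 3.11 points in the Tet2+f_Camk2aCre group and 3.35 points in the Tet2+f group over the 76 regions, and by 2.42 and 2.46 points over all regions.

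**Figure D4:**
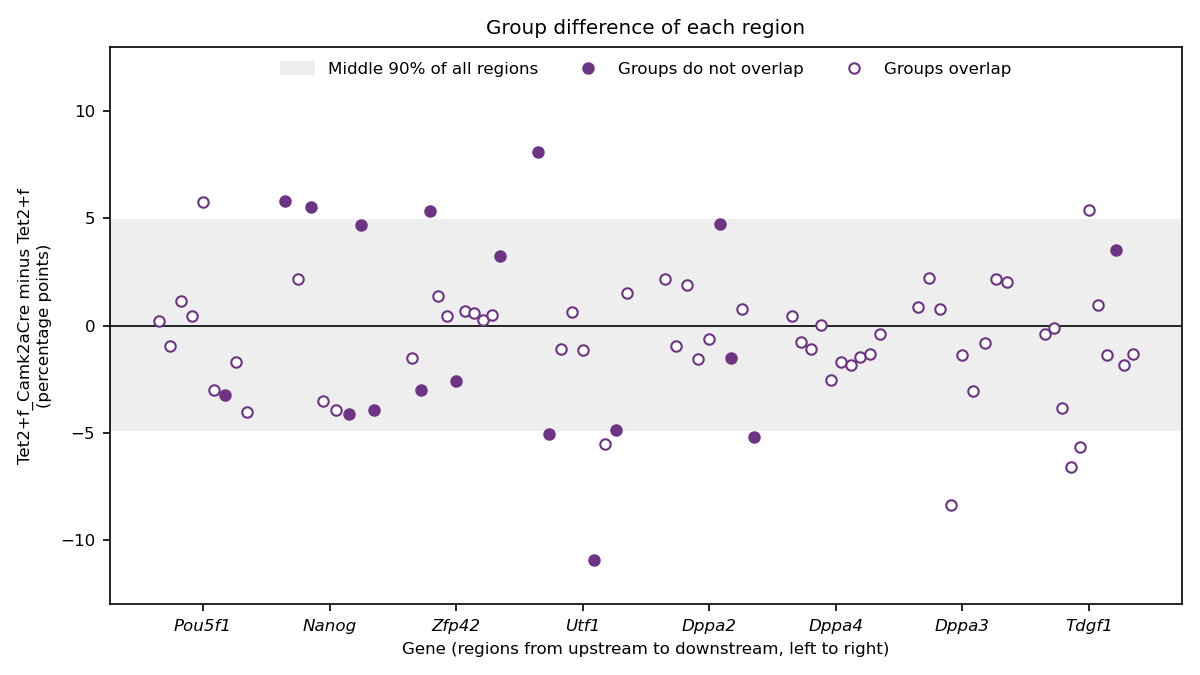
Difference of Tet2+f_Camk2aCre minus Tet2+f (y axis, percentage points) for each of the 76 regions, ordered within each gene from upstream to downstream. Filled points are regions in which the libraries of the groups do not overlap, and the grey band holds the middle 90% of all regions, from -4.87 to 4.94 points. The lowest point, at -10.9 points, is the region in Utf1.

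Averaged over all 76 regions, methylation was 74.2% and 74.6% in the Tet2+f_Camk2aCre libraries, and 74.8% and 75.3% in the Tet2+f libraries. The means were 74.4% ± 0.277 and 75.01% ± 0.366 (SD, n = 2 each), a difference of -0.575 points. An exact two-sided permutation test gave p = 0.333, which is the smallest that 6 arrangements of the libraries allow. The difference lay between -0.834 and -0.317 points with any 1 library left out, the smaller size being that without replicate 2 of the Tet2+f group.

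Gene means showed small differences in both directions. The Utf1 mean was 40.2% and 37.8% in the Tet2+f_Camk2aCre libraries, and 42.1% and 40.03% in the Tet2+f libraries, a difference of -2.05 points. Of the 8 genes, 2 had a higher mean in the Tet2+f_Camk2aCre group, against a background of 50.9% of genes. They were Nanog and Zfp42, by 0.326 and 0.479 points. Pou5f1, Dppa2, Dppa3, Dppa4 and Tdgf1 had differences of -0.596, -0.0300, -0.622, -1.07 and -1.02 points. The libraries of the groups did not overlap in 1 of 8 gene means, against a background of 33.1%. That gene was Dppa3, at 76.2% and 76.5% in the Tet2+f_Camk2aCre libraries, and at 76.6% and 77.3% in the Tet2+f libraries. With any 1 library left out, the sign of the gene mean difference turned for 5 genes. For the others its size moved, from -2.05 to -0.0872 points for Dppa4, from -3.24 to -0.862 points for Utf1 and from -0.954 to -0.290 points for Dppa3. The Dppa4 value nearest 0 was that without replicate 1 of the Tet2+f group, the Utf1 one that without replicate 2 of the Tet2+f_Camk2aCre group, and the Dppa3 one that without replicate 2 of the Tet2+f group.

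The levels differed by position along the genes. The 8 start regions averaged 61.5% and 63.8% in the Tet2+f_Camk2aCre libraries, and 60.8% and 63.0% in the Tet2+f libraries. The 17 regions upstream of the start averaged 79.4% in each Tet2+f_Camk2aCre library, and 79.1% and 79.0% in the Tet2+f libraries. The 37 regions inside the genes averaged 72.6% and 72.9% in the Tet2+f_Camk2aCre libraries, and 74.0% and 73.7% in the Tet2+f libraries. The 14 regions downstream averaged 79.5% and 79.7% in the Tet2+f_Camk2aCre libraries, and 79.5% and 81.8% in the Tet2+f libraries. The mean inside the genes includes 3 regions under 20%, all in Utf1. By median level the order differed, with 86.4% inside the genes, 83.5% upstream, 82.6% downstream and 66.2% at the start. In the averages the groups overlapped at the start and downstream, while the Tet2+f_Camk2aCre libraries were both above upstream and both below inside the genes. No background was made for such averages, and the groups did not overlap in 32.8% of all single regions. Of the 76 regions, 4 were under 20%, or 5.26%, against 6.57% of all regions, and these 4 were all in Utf1. Above 80% were 46 of the 76, or 60.5%, against 63.2% of all regions. Without Utf1 that share was 44 of 67, or 65.7%.

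Other genes of the network were read at their promoters from a list of 38 genes with a promoter value. None passed the test, and 1 of 38 had an unadjusted p under 0.05 against the background of 5.07%. Of 20 further transcription factors 19 were measured, and of these 12 were higher and 7 lower in the Tet2+f_Camk2aCre group. Their median difference was 0.221 points, against 0.0261 points over all promoters. Of 19 other genes of embryonic stem cells, 8 were higher and 11 lower, and the median difference was -0.704 points. The 3 lowest differences were -6.81 points for Lefty1, an inhibitor of NODAL, -3.64 points for Esrrb, an orphan nuclear receptor, and -2.42 points for Tcl1, a co-activator of the kinase AKT. Among the highest were 4.13 points for Zscan4c, a zinc finger gene with near-identical copies, and 2.05 points for Nr0b1, a nuclear receptor that lacks a DNA-binding domain. The Lefty1 promoter was at 59.6% and 61.3% in the Tet2+f_Camk2aCre libraries, and at 65.2% and 69.4% in the Tet2+f libraries (limma adjusted p = 0.961).

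In level, the further transcription factors were mostly low at the promoter. Their median was 19.4%, with 10 of 19 under 20%, while the other stem cell genes had a median of 53.6%, with 3 of 19 under 20%. The 8 genes described here had a median of 75.9%, and 0 were under 20%. Utf1 came nearest, at 22.1%, a mean that includes the region in Kndc1, while its start region was at 2.66%. Of all promoters, 24.1% were under 20%. Among the transcription factors, Klf4 and Myc were at 4.98% and 6.62% (means of 4 libraries). Of the other stem cell genes 3 were above 80%, with Dppa5a and Tex19.1 among them at 90.8% and 89.3%. The 3 of that list under 20% were Lin28a, Trim71 and Fut4, at 9.75%, 16.7% and 17.4%. By the mean distance over the 4 libraries from the median promoter level of the 8 genes, the nearest were Gdf3 at 1.64 points, Fbxo15 at 4.63 points and Zscan4c at 6.70 points.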

How the data were processed

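Whole-genome bisulfite sequencing of CA1 tissue gave 4 libraries, with 2 in the Tet2+f_Camk2aCre group and 2 in the Tet2+f group. For each region, the authors deposited a percent of methylation in every library, without counts or coverage, so depth is unknown. Per the submitters' processing notes, Bismark 0.19.0, Trim Galore 0.4.5, FastQC 0.11.5 and edgeR were used with mm10. How regions were drawn, how CpGs were averaged and how reads from near-identical copies were handled is not given in the sources used here.

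From 849172 regions, 158 with any missing value were dropped. Levels, as a share of 1, were tested as log2((level + 0.01)/(1 - level + 0.01)) with limma 3.58.1 in R 4.3.3, 2 libraries against 2. P-values were adjusted by Benjamini-Hochberg over all regions, gene means or promoters, with a threshold of 0.05. Gene means of the 8 genes include regions within 3 kb, while those of all other genes do not. The gene mean backgrounds and percentiles are therefore of a somewhat unlike measure. A promoter is the mean of all regions overlapping 2000 bp before to 500 bp after the start. Gene positions, names and pseudogenes came from RefSeq. Tested on simulated data with known changes, the fit recovered their size and, after adjustment, called most changed promoters and gene means but no changed region. The planted changes were set only in features of low to intermediate level. They were far larger than any promoter or gene mean difference of the 8 genes, so they say little of differences that small. In the main fit the Camk2a promoter, 37.7 points apart, was not called (limma adjusted p = 0.191). The replicate number was not used as a block.

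The text names the 8 genes, the region of largest difference in each, the 3 promoters with the largest difference in each direction among other pluripotency genes, and the 3 closest in level. Of these promoters, 1 is not reported here. Klf4, Myc, Dppa5a, Tex19.1, Lin28a, Trim71, Fut4, Prox1, Gad1, Gad2, Camk2a and further regions of the 8 genes were picked with their values in view. The members and lists were chosen with earlier results of these data known. Alternatives were other offsets and scales, priors, centring, region and promoter sizes, a replicate block and leaving out each library.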

Additional observations from a re-analysis of the deposited data

How the results depend on the processing

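No region, gene mean or promoter of the 8 genes passed the threshold under any setting tried, and the number of their regions with an unadjusted limma p under 0.05 was between 1 and 5. Over all regions that number was between 29310 and 42071, with 39068 of 849014 in the main fit. With a trended and robust prior, 1 of all promoters passed, that of Camk2a (limma adjusted p = 0.00124), higher by 37.7 points on average in the Tet2+f_Camk2aCre group. Whether reads of a promoter copy driving Cre enter that value was not tested. In a fit with a replicate block, 0 regions, 0 gene means and 0 promoters passed. There 2 of the 76 regions had an unadjusted limma p under 0.05, against 34058 of all 849014 regions. The differences of replicates 1 and 2 correlated between the groups at r = 0.00648, so the numbers were not taken as pairing the libraries. Without the flanking regions the gene mean differences turned to 0.221 points for Pou5f1, -0.277 for Nanog and 0.580 for Dppa2. Among those that kept their sign, the largest moves were to -2.57 points for Dppa3 and -3.62 for Utf1. Weighted by region length they turned to -0.156 points for Nanog, 0.297 for Dppa2 and 0.123 for Dppa3. With the promoter narrowed to 1000 bp before and 200 bp after the start, the promoter differences turned to 1.89 points for Dppa2 and 1.495 for Dppa3. With 1 library left out, gene mean differences ranged from -3.07 to 1.88 points for Pou5f1, -0.915 to 1.57 for Nanog, -0.480 to 0.420 for Dppa2, -0.583 to 1.54 for Zfp42 and -2.24 to 0.200 for Tdgf1. Promoter differences ranged from -1.48 to 1.91 points for Pou5f1, -0.671 to 3.44 for Nanog, -1.13 to 0.714 for Dppa2, -5.49 to 1.90 for Dppa3 and -2.37 to 1.14 for Dppa4. The region differences ranged from -17.2 to 3.99 points at the Tdgf1 start, -7.62 to 2.56 in Dppa4 and -4.07 to 15.6 in Pou5f1. The cause of these turns was not tested. A fit without 1 library leaves 1 in that group, which is assumed to vary like the other group. With no coverage in the table, regions of few reads could not be told from regions of many.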
